A study of Mus musculus with 65 samples.

Results

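Laminin and integrin subunit genes made up 36 of the 31057 features in a count table from cultured mouse neural stem cells. They were chosen by gene symbol, by a rule that used no measured value but was set with earlier results of these data known. The members were 10 laminin chains (5 alpha, 3 beta and 2 gamma) and 26 integrin subunits (17 alpha and 9 beta). The cells were primary cultures from the subventricular zone, a germinal layer beside the lateral ventricles of the adult brain, of 5 young donors aged 3 to 4 months and 4 old donors aged 25 months. All groups, the untreated ones included, carried the iOSKM genotype, in which doxycycline induces Oct4, Sox2, Klf4 and Myc, so no comparison is with cells that lack it. The 65 libraries formed 15 groups. Cells in stem cell medium, which holds EGF and bFGF, were read at 18 h with and without doxycycline (2 µg/ml) at both ages, and with doxycycline at 6 and 48 h in old cells. Cells in differentiation medium, which lacks both growth factors, were read untreated at 6, 18 and 48 h at both ages, and with doxycycline at the same 3 times in old cells. Within an age, each animal gave 1 library to each group, so groups of young cells had n = 5 and groups of old cells n = 4.

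Laminins are secreted trimers of an alpha, a beta and a gamma chain that assemble into basement membranes. Integrins are cell-surface dimers of an alpha and a beta subunit that bind such matrix and tie it to the actin cytoskeleton. In the subventricular zone, stem cells touch laminin-rich vessel walls and matrix deposits called fractones. The cultures were grown on plates coated with poly-D-lysine and laminin protein, which RNA sequencing does not read.

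The bases just upstream of 4 integrin alpha genes are shown because these subunits were among those that moved furthest with the medium: Itga4, Itga8 and Itga5 fell and Itga2 rose. Each line holds the 250 bases before the start of the gene in RefSeq (build GRCm38.p6), read 5′ to 3′ on the gene's strand, and capitals mark GGGCGG, the core of an Sp1 motif, on either strand. The window of Itga4 is chr2:79255176-79255425 on the plus strand. Those of Itga8 (chr2:12301945-12302194), Itga5 (chr15:103366792-103367041) and Itga2 (chr13:114932101-114932350) are on the minus strand.
Itga4: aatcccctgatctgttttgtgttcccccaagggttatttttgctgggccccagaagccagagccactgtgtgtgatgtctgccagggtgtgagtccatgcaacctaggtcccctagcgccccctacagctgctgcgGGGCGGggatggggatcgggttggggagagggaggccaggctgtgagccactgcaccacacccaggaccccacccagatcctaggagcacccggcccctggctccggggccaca
Itga8: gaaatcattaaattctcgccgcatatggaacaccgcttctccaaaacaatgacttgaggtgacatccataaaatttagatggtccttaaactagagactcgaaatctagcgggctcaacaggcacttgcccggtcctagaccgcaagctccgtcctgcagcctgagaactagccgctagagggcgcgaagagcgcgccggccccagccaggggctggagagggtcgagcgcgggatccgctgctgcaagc
Itga5: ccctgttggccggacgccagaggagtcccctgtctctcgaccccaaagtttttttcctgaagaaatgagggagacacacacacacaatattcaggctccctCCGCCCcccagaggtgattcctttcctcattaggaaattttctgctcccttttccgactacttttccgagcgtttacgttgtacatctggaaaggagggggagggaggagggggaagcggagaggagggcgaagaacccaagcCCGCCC
Itga2: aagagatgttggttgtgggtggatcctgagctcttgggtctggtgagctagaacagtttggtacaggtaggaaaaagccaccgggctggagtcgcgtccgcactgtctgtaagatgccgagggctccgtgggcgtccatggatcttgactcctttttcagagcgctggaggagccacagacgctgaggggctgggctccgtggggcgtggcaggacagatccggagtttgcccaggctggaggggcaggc

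GC content was 64.0% for Itga4, 56.4% for Itga8, 55.6% for Itga5 and 60.8% for Itga2, against a median of 52.4% over all windows. GGGCGG occurred 1 time upstream of Itga4 and 2 times upstream of Itga5, and was not found in the windows of Itga8 and Itga2. Of 32851 windows of this length over all genes 32.7% held it, as did 7 of 25 windows of the members (23 members had an entry). The other motifs searched on both strands were TGANTCA (AP-1, in 6.75% of all windows and 1 of the members' 25), GGAATG (TEAD, 12.6% and 3), CACGTG (E-box, 6.02% and 0) and TGGGAA (RBPJ, 21.6% and 5). A match describes the letters of a window and not a bound site. In GENCODE M21 (mm10), Itga4 lies at chr2:79255426-79333123, Itgb8 at chr12:119158022-119238802, Lama4 at chr10:38965515-39110188 and Lamb1 at chr12:31265234-31329644.

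Libraries held 56483730 to 116835539 counts. All 10 listed markers of neural stem cells and progenitors were at 1 CPM (on the counts-per-million scale, after TMM) or more, with a summed level of 5590 to 8860 CPM. Of 12 microglial markers 1 or 2 reached 1 CPM and their sum was 5.35 to 12.4 CPM, while 8 endothelial, 6 fibroblast, 6 ependymal and 5 megakaryocyte markers summed to at most 24.8, 48.3, 76.0 and 1.82 CPM. The sum of 8 mural (pericyte and smooth muscle) markers ran from 2.35 to 169 CPM. Of the astrocyte (8 genes) and oligodendrocyte lineage (9 genes) lists the sums ran from 609 to 6630 and from 631 to 6550 CPM. In such bulk samples, fewer cells of a type and less RNA per cell cannot be told apart. Pou5f1, which encodes Oct4, was 0.786 ± 0.354 CPM with and 0.205 ± 0.135 CPM without doxycycline in young cells at 18 h in stem cell medium (mean ± SD, n = 5 each), and 0.401 ± 0.13 and 0.159 ± 0.0588 CPM in old cells (n = 4 each). In old cells at 6 h of differentiation it was 0.327 ± 0.06 with and 0.0625 ± 0.037 CPM without doxycycline. At 18 h these levels were 0.267 ± 0.0983 and 0.124 ± 0.0404 CPM. At 48 h they were 0.335 ± 0.0936 and 0.186 ± 0.0715 CPM, with overlapping libraries.

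In untreated young cells at 18 h in stem cell medium, integrin transcripts were led by Itgb1, the beta subunit shared by most matrix-binding integrins, at 271 ± 9.04 CPM per kb of transcript (mean ± SD, n = 5). Among alpha subunits the laminin receptor subunit Itga6 stood at 34.4 ± 1.64, the vitronectin receptor subunit Itgav at 27.2 ± 0.924 and Itga7, another laminin receptor subunit, at 16.9 ± 3.49 CPM per kb. The fibronectin receptor subunits Itga5 and Itga4 followed at 10.2 ± 1.11 and 9.83 ± 1.77 CPM per kb, with overlapping libraries. The beta subunits Itgb8 (21.3 ± 1.74) and Itgb5 (19.9 ± 2.15 CPM per kb), both partners of Itgav, also overlapped. Of the laminin chains, Lamc1 was highest at 36.3 ± 2.49 CPM per kb. Alpha chains were mainly Lama5 (15.3 ± 1.54) and Lama4 (6.85 ± 0.675), and beta chains Lamb2 (11.4 ± 0.505) and Lamb1 (9.82 ± 0.265 CPM per kb). In old cells in the same medium Itgb1 was at 259 ± 6.59, Lamc1 at 34.8 ± 2.61 and Itga6 at 34.1 ± 1.49 CPM per kb.

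**Figure D1:**
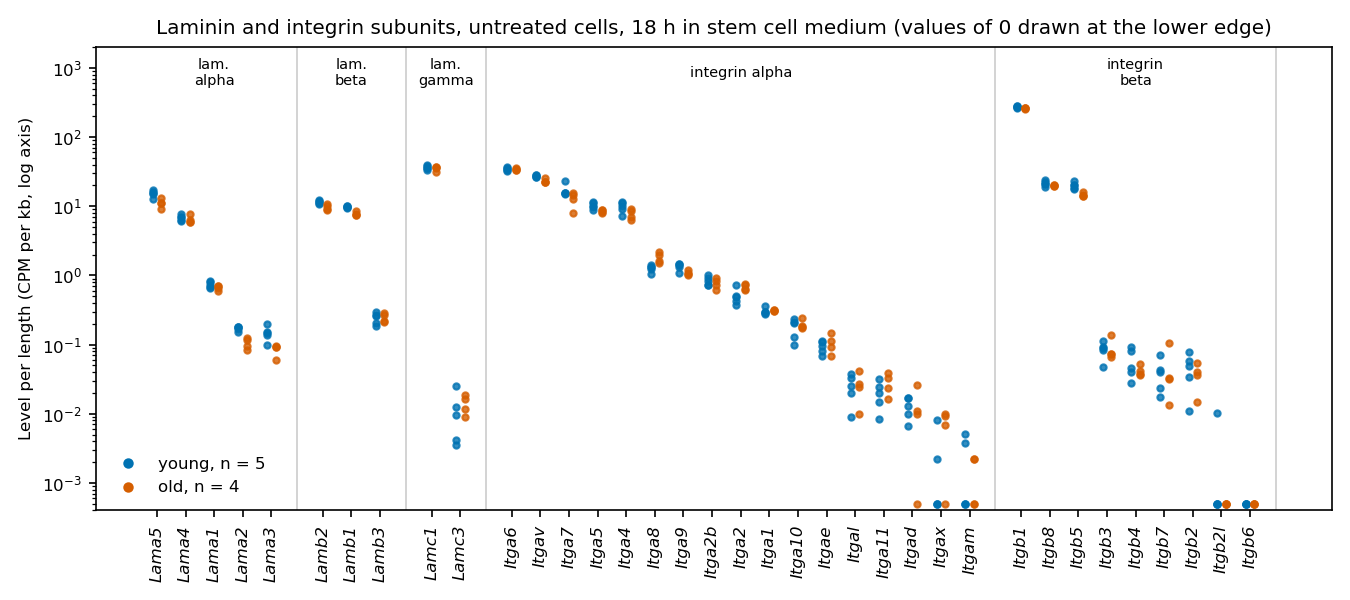
Level of each of the 36 genes in untreated cells at 18 h in stem cell medium (CPM per kb of transcript, log axis; values of 0 at the lower edge), grouped by class. Points are libraries of young (n = 5) and old (n = 4) cells, and Itgb1 lies far above the other subunits while Itgam, Itgax, Itgb2l and Itgb6 lie at the bottom.

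Of the 36 genes, 20 reached a mean of 5 CPM in at least 1 group. The other 16 stayed below that in all 15 groups: Itga10, Itga11, Itgad, Itgae, Itgal, Itgam, Itgax, Itgb2, Itgb2l, Itgb3, Itgb4, Itgb6, Lama2, Lama3, Lamb3 and Lamc3. The leukocyte subunits Itgad, Itgam and Itgax had at most 11, 18 and 14 counts in any library, Itgb2l had at most 2 and the epithelial subunit Itgb6 at most 6. These 5 passed the filter on low counts in none of the 23 comparisons. Highest among the 16 was Lama2, an alpha chain known from muscle and nerve, at 4.82 ± 1.18 CPM after 6 h of differentiation in young cells. Itga1 shares positions on its strand with Pelo and Gm49395, and Itga10 with Gm42957. Itga4, Itgae and Lamb3 overlap Cerkl, Haspin and G0s2 on the opposite strand, and Itga9 overlaps the antisense gene Gm2415. The strand setting of the counting is not given in the sources used here, so the levels of these genes are uncertain to that extent.

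At 18 h most laminin chains and most integrin alpha subunits tested were lower in differentiation medium, and a small set of integrins led by Itgb8 and Itga2 was higher. In young cells, 17 of 29 members tested were lower and 8 higher (adjusted p under 0.05 in edgeR's quasi-likelihood test, here a call), among 82.6% of all genes called. The members' median log2 fold change was -0.72 against 0.03 over all genes tested. Laminin chains had a median of -1.32 (7 lower and 2 higher of 9) and integrins a median of -0.51 (10 lower and 6 higher of 20). In old cells 16 of 29 members were lower and 7 higher, among 82.0% of all genes, with medians of -1.37 for laminins and -0.53 for integrins. The shares of members called, 86.2% and 79.3%, were near those of all genes, so the count of calls is no result about these genes. Untreated cells in stem cell medium were read at 18 h alone. Below, levels at 6 and 48 h of differentiation are set against that time, so medium and time differ together there.

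Itga4, the alpha subunit that binds fibronectin and Vcam1, fell furthest. In untreated young cells it was 143, 127, 157, 160.0 and 99.9 CPM in stem cell medium and 3.99, 3.55, 4.49, 4.42 and 4.72 CPM at 18 h of differentiation. Old cells gave 119, 128, 86.8 and 96.4 against 3.71, 4.25, 3.89 and 3.6 CPM. No library of one medium came near the other, and the log2 fold change was -4.98 ± 0.15 (SE; adjusted p = 9.28e-11, edgeR, lower in 5 of 5 animals) in young and -4.77 ± 0.15 (2.11e-09, 4 of 4) in old cells. At 6 h of differentiation Itga4 lay below stem cell medium at 18 h, with 20.5, 20.8, 23.1, 26.2 and 18.4 CPM in young cells. By 48 h it was at 2.43 ± 0.638 CPM. At matched times it was lower in differentiation medium in all 5 comparisons of the media (log2 fold changes of -5.04 to -1.32). In treated old cells its level in stem cell medium was itself lower at 6 than at 18 h. From 6 to 18 h of differentiation Itga4 fell by 2.36 ± 0.10 on the log2 scale in young cells (adjusted p = 9.15e-11, edgeR).

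Among alpha chains of laminin, Lama4, known from vessel walls, went from 85.2, 85.2, 93.6, 75.3 and 73.8 CPM in stem cell medium to 7.62, 8.99, 8.58, 7.9 and 7.6 CPM at 18 h of differentiation in young cells. It fell by 3.30 ± 0.08 on the log2 scale there (adjusted p = 1.35e-13, edgeR) and by 3.09 ± 0.13 in old cells (1.83e-08). At 48 h Lama4 stood at 1.7, 1.4, 1.93, 1.56 and 1.43 CPM in young cells, below every earlier library. At matched times it was called lower in differentiation medium in 4 of 5 comparisons of the media. The exception was 6 h in treated old cells, with a log2 fold change of -0.16. In those cells its level in stem cell medium was itself lower at 6 than at 18 h. Lama5, the widespread alpha chain, was at 174 ± 17.6 CPM in stem cell medium at 18 h and 179 ± 15.2 CPM at 6 h of differentiation, where the libraries overlapped. It then stood at 58.2 ± 9.32 CPM at 18 h and 30.3 ± 4.04 CPM at 48 h. Its step from 6 to 18 h was -1.61 ± 0.11 (adjusted p = 1.01e-07). Lama1, a chain of early embryonic basement membranes, went from 7.02 ± 0.688 to 2.73 ± 0.502 CPM at 18 h (-1.32 ± 0.13, 1.88e-07).

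At 18 h the pair of abundant beta chains moved in opposite directions between the media. Lamb1 was 98.6, 93.5, 101, 97.4 and 96.9 CPM in young cells in stem cell medium and 33.3, 30.1, 35.8, 36.1 and 35.3 CPM at 18 h of differentiation (-1.47 ± 0.05, adjusted p = 1.36e-12, edgeR). Lamb2, a chain known from kidney and neuromuscular basement membranes, was 73.5, 65.6, 69.1, 71.1 and 67.5 CPM in stem cell medium and 81.2, 78.4, 100, 76.3 and 90.1 CPM at 18 h (0.34 ± 0.07, 0.000623). The young libraries of the media did not overlap for either gene. As a share of the summed beta chains per kb, Lamb1 made up 45.8% ± 0.791 in stem cell medium at 18 h and 7.98% ± 0.795 after 48 h of differentiation (SD, n = 5), while Lamb2 went from 53.1% ± 0.928 to 91.8% ± 0.773. Those shares are not matched in time. At 48 h in treated old cells Lamb1 made up 33.7% in stem cell and 5.73% in differentiation medium, and Lamb2 65.1% and 94.0%. Both genes were lower in differentiation medium there, with log2 fold changes of -3.56 for Lamb1 and -0.47 for Lamb2. The gamma chain Lamc1 fell less than Lamb1 at 18 h, from 300.0 ± 20.6 to 169 ± 8.07 CPM in young cells (-0.79 ± 0.05, 8.56e-10).

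Summed per kb, alpha chains in untreated young cells were at 23.2 ± 1.39 CPM per kb in stem cell medium at 18 h (SD, n = 5). They were at 19.4 ± 1.41 at 6 h, 6.34 ± 0.833 at 18 h and 3.3 ± 0.371 CPM per kb at 48 h of differentiation. Beta chains went from 21.5 ± 0.686 to 14.3 ± 1.16 and gamma chains from 36.3 ± 2.49 to 17.4 ± 1.56 CPM per kb. In stem cell medium the alpha and beta sums overlapped, and at 48 h of differentiation the alpha sum lay below the beta sum in every library. At a matched 6 h in treated old cells (n = 4), alpha chains summed to 14.8 ± 1.22 in stem cell and 18.1 ± 2.19 CPM per kb in differentiation medium. Beta chains summed to 16.0 ± 0.983 and 20.2 ± 1.49, and gamma chains to 60.0 ± 1.71 and 23.2 ± 1.79 CPM per kb. These sums are descriptions and were not tested.

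**Figure D2:**
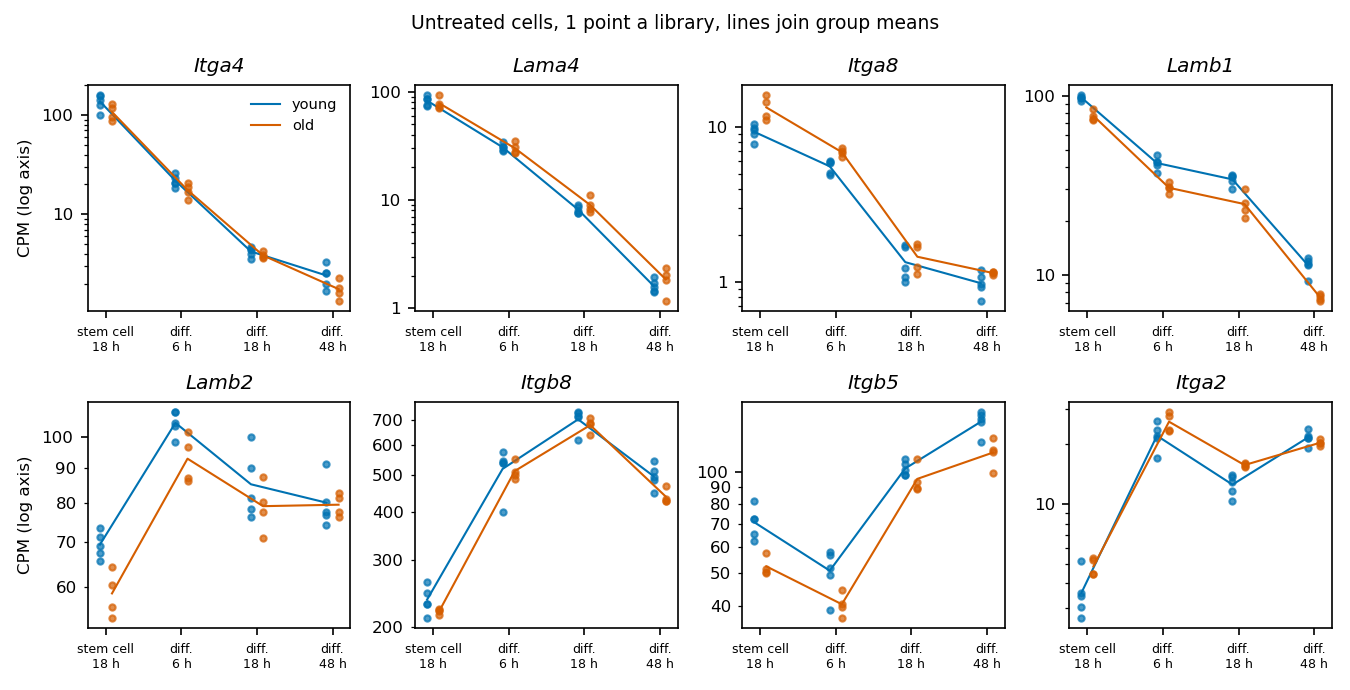
Levels (CPM, log axis) of 8 members in untreated young (n = 5) and old (n = 4) cells in stem cell medium at 18 h and after 6, 18 and 48 h in differentiation medium. Points are libraries and lines join group means. Itga4 and Lama4 fall at each step while Itgb8 peaks at 18 h and Itgb5 is highest at 48 h. The step from stem cell medium to 6 h of differentiation changes medium and time together.

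The summed beta subunits of integrins became less dominated by Itgb1. Itgb1 itself went from 1150, 1090, 1140, 1060 and 1090 CPM to 667, 659, 649, 670.0 and 623 CPM at 18 h in young cells (-0.72 ± 0.04, adjusted p = 1.89e-10, edgeR) and stood at 491 ± 14.6 CPM at 48 h. Itgb8, whose dimer with Itgav binds latent TGF-beta, was 246, 262, 230.0, 211 and 230.0 CPM in stem cell medium at 18 h. In differentiation medium it was 544, 540.0, 401, 575 and 539 CPM at 6 h and 710.0, 729, 620.0, 715 and 733 CPM at 18 h. All these libraries of differentiation medium lay above those of stem cell medium, with a log2 fold change at 18 h of 1.61 ± 0.06 (4.82e-12) in young and 1.66 ± 0.04 (1.61e-12) in old cells. Itgb8 then fell from 18 to 48 h by 0.52 ± 0.06 on the log2 scale in young and 0.64 ± 0.05 in old cells, to 497 ± 35.4 and 440.0 ± 20.1 CPM. Itgb5, which binds vitronectin with Itgav, was at 70.8 ± 7.63 CPM in stem cell medium at 18 h. At 6 h of differentiation (51 ± 7.58 CPM) it lay below all those libraries, a pair not matched in time. At matched times, 6 h in treated old cells included, Itgb5 was higher in differentiation medium in all 5 comparisons (log2 fold changes of 0.57 to 0.97). It was higher at 18 h (102 ± 4.69 CPM, 0.57 ± 0.06 over stem cell medium, 1.63e-06) and at 48 h stood at 140.0 ± 10.9 CPM. Per kb, Itgb1 made up 86.7% ± 0.903 of the summed beta subunits in stem cell medium and 58.5% ± 0.665 at 48 h of differentiation, Itgb8 6.82% ± 0.465 and 21.9% ± 1.69, and Itgb5 6.38% ± 0.649 and 19.2% ± 1.13 (young, SD, n = 5).

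Of the alpha subunits, Itga2, a collagen receptor subunit that also binds laminin, rose. It was 3.58, 3.06, 5.16, 3.45 and 2.68 CPM in stem cell medium at 18 h and 22.1, 23.7, 17, 26.3 and 21.5 CPM at 6 h of differentiation in young cells, with no overlap. At 18 h the log2 fold change over stem cell medium was 1.85 ± 0.16 (adjusted p = 1.42e-07, edgeR) in young and 1.72 ± 0.08 (1.80e-10) in old cells. Itga1, another collagen receptor subunit, changed less (0.32 ± 0.09 young, 0.55 ± 0.07 old) and stood at 11.9 ± 2.06 CPM at 48 h in young cells. Itga8, the nephronectin receptor subunit, went from 8.98, 9.56, 10.5, 7.78 and 9.85 to 1, 1.07, 1.67, 1.23 and 1.73 CPM (-2.77 ± 0.15, 3.44e-10).

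Itga5 and Itga9 also fell at 18 h, by 1.72 ± 0.08 and 1.86 ± 0.13 on the log2 scale in young cells. Itga9, which binds tenascin C, rose again from 18 to 48 h in both ages (1.16 ± 0.15 young, 1.41 ± 0.11 old), to 6.27 ± 1.17 and 7.95 ± 0.874 CPM. The laminin receptor subunit Itga6 was at 311 ± 14.8 CPM in stem cell medium at 18 h. In differentiation medium it was at 358 ± 50.1 at 6 h and 166 ± 11.1 CPM at 18 h, a change between media of -0.86 ± 0.05 at 18 h (adjusted p = 3.25e-10, edgeR). Itga7 took a different path, from 137 ± 28.2 in stem cell medium at 18 h to 36 ± 7.08 at 6 h, 53.7 ± 3.64 at 18 h and 35.1 ± 3.49 CPM at 48 h of differentiation. Its rise from 6 to 18 h was 0.59 ± 0.11 (0.000769) in young and 1.01 ± 0.14 (0.000344) in old cells.

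Itgb7, known as a partner of Itga4 on lymphocytes, was at 0.229 ± 0.11 CPM at 18 h of differentiation and at 1.83, 2.17, 1.19, 3.78 and 2.88 CPM at 48 h in young cells. Old cells gave 3.17, 4.08, 4.43 and 5.38 CPM at 48 h. The change from 18 to 48 h was 3.38 ± 0.36 (adjusted p = 7.45e-06, edgeR) and 4.17 ± 0.30 (4.05e-07), while Itga4 was at 2.43 ± 0.638 and 1.77 ± 0.403 CPM at 48 h. The smaller Itgb7 rise between media at 18 h in young cells (1.15 ± 0.42) was not called without animal 3 or animal 5 (adjusted p of 0.0642 and 0.151).

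Between 6 and 18 h of differentiation 21 of 30 members fell and 3 rose in young cells (66.5% of all genes called), and 18 fell and 3 rose in old cells (67.7%). All 10 laminin chains tested were lower at 18 h in young cells, and 7 of 10 in old cells. The members that rose were Itgb8, Itga7 and Itgb5 in both ages. From 18 to 48 h the counts were 16 lower and 6 higher of 28 in young cells (56.9% of all genes) and 13 lower and 7 higher of 26 in old cells (56.5%). No laminin chain tested rose in that interval in either age by edgeR, while Itga1, Itga2, Itga9, Itga10, Itgb5 and Itgb7 rose in both and Itgb4 in old cells. The rise of Itgb5 in old cells (0.24 ± 0.08) was not called with no filter on low counts (adjusted p = 0.0808) or without animal 2 or animal 4.

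The summed markers of astrocytes moved with this course, at 1120 CPM in young cells in stem cell medium, 2100 at 6 h, 3640 at 18 h and 5720 CPM at 48 h of differentiation. Markers of the oligodendrocyte lineage went from 987 to 3070 CPM in young cells and from 1050 to 4800 CPM in old cells by 48 h. Not every listed marker followed its sum. In untreated young cells the astrocyte marker Aldh1l1 was at 831 CPM in stem cell medium and 1430, 1200 and 713 CPM at 6, 18 and 48 h of differentiation. Olig2, of the oligodendrocyte lineage list, went from 914 to 525 CPM by 48 h. The part of such cells in the levels of laminin and integrin genes was not tested.

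The media could also be compared in doxycycline-treated old cells at matched times. At 6 h 12 of 30 members were lower in differentiation medium and 10 higher (80.7% of all genes called), at 18 h 17 and 7 of 31 (81.5%) and at 48 h 17 and 6 of 27 (76.9%). The laminin chains' median log2 fold change was 0.13 at 6 h, -1.09 at 18 h and -2.68 at 48 h, against 0.04, 0.02 and 0.03 over all genes. At 6 h the largest falls were in Itga7 (-3.30 ± 0.22), Itga5 (-2.17 ± 0.12) and Itga9 (-1.87 ± 0.10), and the largest rises in Itga2 (2.28 ± 0.19), Lama2 (2.25 ± 0.17) and the leukocyte subunit Itgal (1.80 ± 0.40). Lama5 was higher at 6 h (0.41 ± 0.12), but not called without animal 2 or animal 3. At 48 h the largest falls were in Lama4 (-5.58 ± 0.10, adjusted p = 2.15e-12, edgeR), Itga4 (-5.04 ± 0.13) and Lamb1 (-3.56 ± 0.04). Lamb2 was higher in differentiation medium at 6 and 18 h (1.36 ± 0.06 and 0.48 ± 0.05) and lower at 48 h (-0.47 ± 0.06), and Itga9 was lower at 6 and 18 h and higher at 48 h (0.67 ± 0.10, 4.67e-05).

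**Figure D3:**
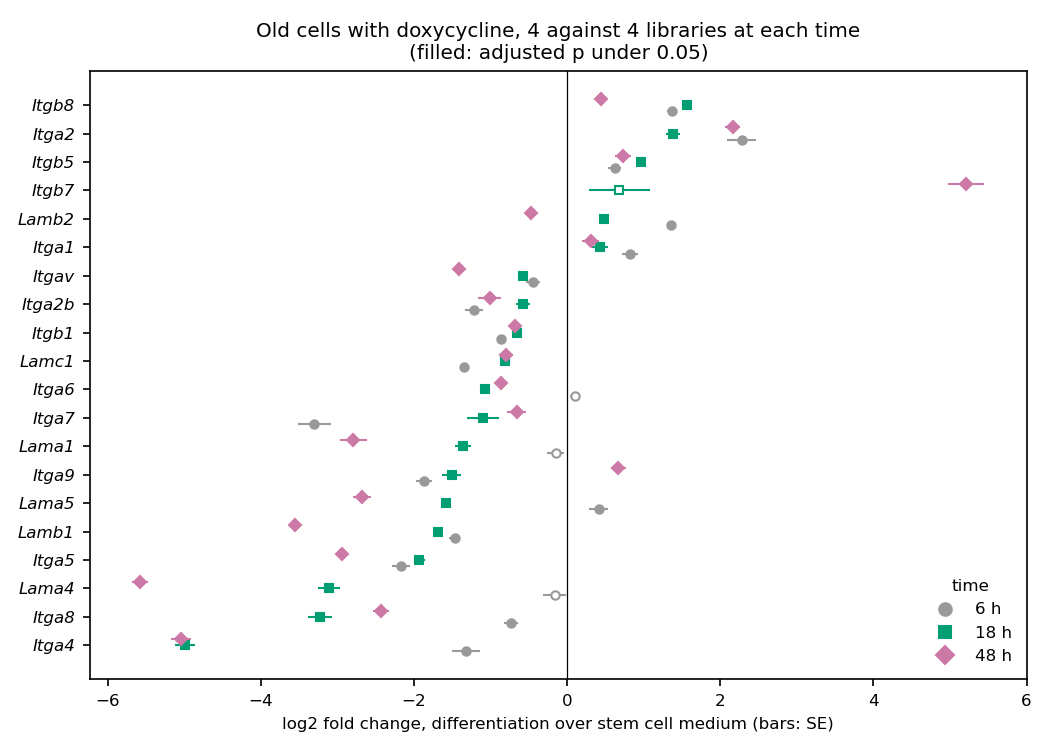
Log2 fold change of differentiation over stem cell medium in doxycycline-treated old cells at 6, 18 and 48 h (4 against 4 libraries each) for the 20 members with a mean of at least 5 CPM in a group. Symbols are edgeR estimates, filled where the adjusted p is under 0.05, and bars their SE; Itga4 lies below 0 and Itgb8 above 0 at all 3 times, while Lamb2 and Itga9 change sign.

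Whether the effect of the medium differed between 18 and 48 h was tested as an interaction in treated old cells. Of 31 members, 12 had a lower and 5 a higher effect at 48 h (55.4% of all genes called). Lama4 (-2.47 ± 0.19, adjusted p = 3.18e-08, edgeR), Lamb1 (-1.87 ± 0.08), Lama1 (-1.42 ± 0.20) and Itgb8 (-1.13 ± 0.08) were lower, so the fall of Lama4, Lamb1 and Lama1 in differentiation medium was larger at 48 h and the excess of Itgb8 smaller. Itgb7 (4.52 ± 0.47) and Itga9 (2.18 ± 0.16) were higher. The interaction of medium with age at 18 h called 0 of 30 members by edgeR (0.818% of all genes), with 7 members at an unadjusted p under 0.05, and DESeq2 called 1.

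Cells in stem cell medium changed over time as well. The labels give those times only for treated old cells, so time and the length of treatment cannot be told apart there. From 6 to 18 h 7 of 30 members fell and 9 rose (61.3% of all genes called). Itga7, which pairs with Itgb1 as a laminin receptor, was 364, 213, 329 and 323 CPM at 6 h and 130.0, 68.5, 120.0 and 114 CPM at 18 h (-1.48 ± 0.25, adjusted p = 0.00158, edgeR). Itga5 was 127, 88.2, 130.0 and 107 against 47.3, 44.1, 46.2 and 44.6 CPM (-1.29 ± 0.12, 2.18e-05). Both were higher in every library at 6 h. Lamc1 (496 ± 14.2 against 309 ± 14.7 CPM) and Itgb1 (1370 ± 30.7 against 1050 ± 14.7 CPM) also fell. The opposite held for Itga4 (42.8 ± 11.4 at 6 h and 103 ± 17.5 CPM at 18 h, 1.30 ± 0.20), Lama4 (34.2 ± 7.66 and 78.3 ± 10.3 CPM, 1.22 ± 0.16) and Itgb5 (25.9 ± 2.02 and 47.5 ± 2.55 CPM, 0.90 ± 0.06).

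The smooth muscle actin gene Acta2 moved with Itga7 in these libraries of stem cell medium, but not throughout differentiation. At 6 h in stem cell medium Acta2 was 168, 90.1, 139 and 156 CPM in old animals 1 to 4, at 18 h with doxycycline 43.6, 22.3, 31.6 and 37.7 CPM, and at 48 h 1.96, 2.05, 1.6 and 2.44 CPM. Animal 2 was lowest for both genes at 6 and 18 h. In untreated young cells at 18 h Acta2 was 53.2, 44.3, 48.1, 38.5 and 82.4 CPM and Itga7 125, 120.0, 126, 126 and 187 CPM in animals 1 to 5, with animal 5 highest for both. From 6 to 18 h of differentiation, where Itga7 rose, mean Acta2 went from 16.7 to 2.21 CPM in untreated young and from 12.3 to 1.66 CPM in untreated old cells. Of the other mural markers, Rgs5 had a highest value of 0.738 CPM over all libraries and Myh11 of 1.08 CPM. At 6, 18 and 48 h in stem cell medium with doxycycline, Myh11 means were 0.379, 0.237 and 0.406 CPM. Means fell over these times for Rgs5 (0.554, 0.373 and 0.295 CPM), Des (0.489, 0.126 and 0.0851 CPM) and Kcnj8 (0.0482, 0.0359 and 0.0132 CPM). They rose for Abcc9 (0.0108, 0.0176 and 0.0208 CPM) and Vtn (0.0, 0.00643 and 0.0268 CPM). Pdgfrb had a mean of 0.177 CPM at 6 h there and group means of 3.18 to 4.8 CPM at 48 h of differentiation. The part of such cells in the level of Itga7 was not tested.

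From 18 to 48 h in stem cell medium with doxycycline, 8 of 29 members fell and 9 rose (52.3% of all genes called). Lamb2 rose from 58.9, 65.2, 58.2 and 55.8 to 105, 102, 99.4 and 93.6 CPM (0.76 ± 0.05, adjusted p = 5.23e-07, edgeR), with no overlap. Itgb8 (0.55 ± 0.05), Lama1 (0.63 ± 0.09), Itga1 (0.80 ± 0.12) and Itgb5 (0.44 ± 0.06) rose too. Itga7 (-1.22 ± 0.22), Itga8 (-1.20 ± 0.10) and Itga4 (-0.83 ± 0.14) fell. Lamb1 (85.2 ± 5.27 and 84.3 ± 2.1 CPM) and Lama4 (78.3 ± 10.3 and 73.8 ± 8 CPM) were not called here, with differences of -0.01 ± 0.04 and -0.08 ± 0.10.

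Age differences were smaller than those of medium and time, and most members called were lower in old cells. Without doxycycline at 18 h in stem cell medium, 8 of 29 members were lower and 1 higher in old cells, among 5.95% of all genes called. The lower members were the laminin chains Lama2, Lama3, Lama5, Lamb1 and Lamb2 and the integrin subunits Itga5, Itgav and Itgb5, and the higher one was Itga8. The median log2 fold change was -0.25 over 9 laminin chains and -0.09 over 20 integrins, against -0.01 over all genes tested. In differentiation medium 2 of 30 members were lower at 6 h (1.43% of all genes), 2 lower and 1 higher of 29 at 18 h (5.19%) and 3 lower of 26 at 48 h (10.6%), where the members' share, 11.5%, was near that of all genes. The untreated groups used here also serve in the comparisons of medium, time and doxycycline.

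Lamb1 was called lower in old cells at all 4 of these points. The 4 points come from the same young and old animals, so their calls are not independent of each other. In stem cell medium it was 98.6, 93.5, 101, 97.4 and 96.9 CPM in young and 84.3, 77.1, 74 and 72.9 CPM in old cells, which did not overlap (-0.35 ± 0.04, adjusted p = 0.00251, edgeR). At 6 h of differentiation it was 46.8, 36.9, 42.9, 42.9 and 40.9 CPM in young and 30.9, 32.8, 28.4 and 30.4 CPM in old cells, again apart (-0.46 ± 0.06, 0.00616). At 18 h the groups overlapped through 1 old library, with 33.3, 30.1, 35.8, 36.1 and 35.3 against 25.3, 30.3, 20.7 and 23.1 CPM (-0.44 ± 0.10, 0.0307). That call was lost with no filter on low counts (0.0525) and when any 1 of 7 of the 9 libraries was left out (0.0505 to 0.101; all but old animal 2 and young animal 2). At 48 h Lamb1 was 12, 9.3, 12.5, 11.5 and 11.4 CPM in young and 7.19, 7.86, 7.68 and 7.31 CPM in old cells, without overlap (-0.59 ± 0.08, 0.00312). With doxycycline at 18 h in stem cell medium Lamb1 was 99.4 ± 5.3 CPM in young and 85.2 ± 5.27 CPM in old cells, a pair that was not tested.

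Itga5 was lower in old cells by 0.29 ± 0.07 on the log2 scale in stem cell medium (adjusted p = 0.0427, edgeR; 50.5 ± 5.47 young and 41.7 ± 1.92 CPM old, overlapping), by 0.33 ± 0.07 at 6 h (0.0473) and by 0.46 ± 0.07 at 18 h (0.00357) of differentiation. The 18 h values were 14.9, 12.5, 15.5, 16.4 and 15.2 CPM in young and 11.1, 10.2, 10.3 and 11.1 CPM in old cells, without overlap. At 48 h the difference was -0.32 ± 0.13 (0.132), which was not called. The call in stem cell medium was lost when any 1 of 8 libraries was left out, the exception being young animal 2 (adjusted p of 0.0625 to 0.112), and the call at 6 h when any 1 of 7 was left out, the exceptions being young animals 2 and 4 (0.0661 to 0.152). With sex as a covariate the adjusted p was 0.0583 in stem cell medium and 0.0682 at 6 h.

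Itgb5 in stem cell medium was 72.3, 72.3, 65.2, 62.4 and 82 CPM in young and 57.6, 50.4, 51.5 and 50.3 CPM in old cells (-0.45 ± 0.08, adjusted p = 0.0095, edgeR), without overlap. Itgav was 292 ± 9.92 against 248 ± 15.2 CPM (-0.25 ± 0.04, 0.0099) and Lamb2 69.4 ± 3.07 against 58.7 ± 4.58 CPM (-0.25 ± 0.05, 0.0189). The Lamb2 call was lost without old animal 3, old animal 4 or young animal 1 (0.0567 to 0.067). The low-level alpha chain Lama2 was at 2.81 ± 0.191 against 1.72 ± 0.308 CPM (-0.72 ± 0.13, 0.0099) and Lama3, a chain of epithelial laminin, at 1.57 ± 0.377 against 0.904 ± 0.178 CPM (-0.81 ± 0.21, 0.043; not called with sex as a covariate).

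Lama5 was 180.0, 146, 173, 195 and 175 CPM in young and 148, 126, 104 and 125 CPM in old cells (-0.48 ± 0.11, adjusted p = 0.0325, edgeR), overlapping slightly. Its call was lost with sex as a covariate (0.0517), with no filter on low counts (0.0642) and without any 1 of 7 libraries, the exceptions being old animal 1 and young animal 2 (0.0513 to 0.0836). Itga8 was higher in old cells, 14.5, 11.2, 16.2 and 11.8 CPM against 8.98, 9.56, 10.5, 7.78 and 9.85 CPM in young (0.51 ± 0.12, 0.0263), without overlap. It was not called without old animal 1, old animal 3 or young animal 1 (0.0585 to 0.0735).

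At 18 h of differentiation Itga2 was higher in old cells, at 16, 16.1, 15.5 and 15.4 CPM against 11.7, 13, 10.4, 14 and 13.7 CPM (0.34 ± 0.08, adjusted p = 0.0198, edgeR), without overlap. It lost its call without old animal 2, 3 or 4 or young animal 1 (0.0512 to 0.0638). At 48 h Itgb5 was 140.0 ± 10.9 in young and 114 ± 11.1 CPM in old cells (-0.30 ± 0.07, 0.026) and Itga7 35.1 ± 3.49 and 29.1 ± 1.1 CPM (-0.27 ± 0.07, 0.025). Leaving out old animal 2, 3 or 4 or young animal 1, 2 or 3 ended the Itgb5 call, and leaving out old animal 2, 3 or 4 or young animal 1 the Itga7 call. Neither Itga6 nor Itgb1, which together form a main laminin receptor, was called between ages at any point, with log2 fold changes of -0.20 to 0.12 for Itga6 and -0.08 to 0.02 for Itgb1. Oligodendrocyte lineage markers also differed at 48 h, with a summed level of 3070 CPM (2120 to 3940) in young and 4800 CPM (4160 to 5470) in old cells, and their part in the age differences was not tested.

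**Figure D4:**
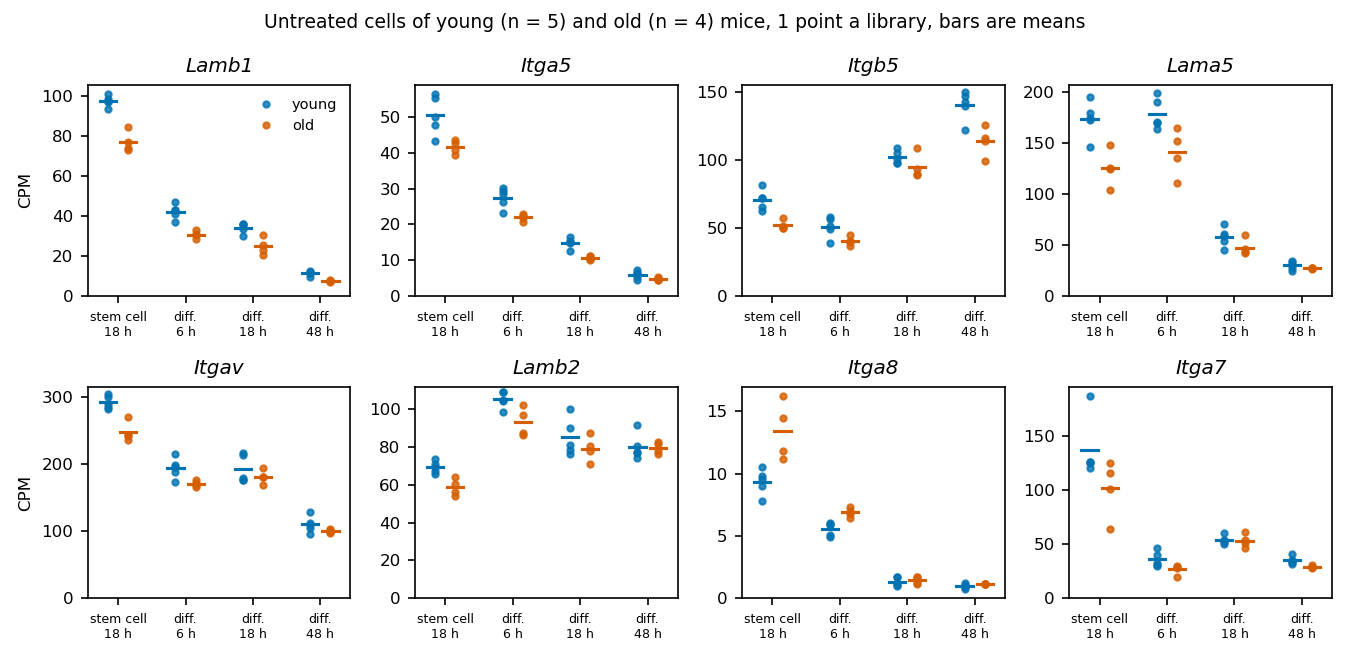
Levels (CPM) of 8 members in young (n = 5) and old (n = 4) untreated cells in stem cell medium at 18 h and at 6, 18 and 48 h of differentiation. Points are libraries and bars group means, and the mean of Lamb1 is lower in old cells at all 4 points, with libraries overlapping at 18 h of differentiation.

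Doxycycline was followed by small differences in laminin and integrin genes. No member was called in any of the 5 matched comparisons by edgeR without an animal term, among 0.0361% of all genes in young and 0.018% in old cells in stem cell medium, and 0.0294%, 0.0118% and 0.0296% at 6, 18 and 48 h of differentiation in old cells. At an unadjusted p under 0.05 there were 3, 5, 3, 2 and 3 members in that order, and DESeq2 called 1, 0, 0, 0 and 0. Median log2 fold changes of the members were 0.03, 0.09, 0.03, -0.02 and -0.04, against 0.0 over all genes in each.

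Libraries of 1 age with the same number come from the same animal. With the animal as a block 2 members were higher and 4 lower in young cells (13.6% of all genes called) and 6 higher and 1 lower in old cells in stem cell medium (11.2%). At 6 h of differentiation 3 were higher and 1 lower (3.67%), at 18 h 0 were called (0.883%) and at 48 h 2 were lower (4.15%). Itga5 rose in 5 of 5 young animals in stem cell medium, from 47.9, 43.2, 49.9, 56.5 and 55.3 to 54.1, 48.4, 56.3, 61.7 and 64.5 CPM (0.17 ± 0.03, adjusted p = 0.00145, edgeR with block), with overlapping groups. In old animals it rose in 4 of 4, from 43.7, 39.5, 42.8 and 40.8 to 47.3, 44.1, 46.2 and 44.6 CPM, without overlap (0.14 ± 0.03, 0.00257). It was also higher in 4 of 4 at 6 h of differentiation (0.17 ± 0.04, 0.0238). Itga7 rose by 0.11 ± 0.03 in young and 0.10 ± 0.02 in old cells in stem cell medium and by 0.21 ± 0.04 at 6 h of differentiation, in each animal. At 18 h in stem cell medium Acta2 was higher with doxycycline in 4 of 5 young animals and lower in 4 of 4 old animals.

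In old cells in stem cell medium Lamb1 was 84.3, 77.1, 74 and 72.9 CPM without and 93.1, 82.8, 82.4 and 82.7 CPM with doxycycline, higher in all 4 animals (0.16 ± 0.02, adjusted p = 8.01e-05, edgeR with block), while the groups overlapped. Lamc1 (0.12 ± 0.02), Itgav (0.12 ± 0.02) and the platelet subunit Itga2b (0.32 ± 0.08) rose and Itgb5 fell by 0.13 ± 0.03. Young cells had lower Lama1 (-0.30 ± 0.07, 0.00737; 7.02 ± 0.688 without and 5.7 ± 0.22 CPM with doxycycline, not overlapping), Itga4 (-0.25 ± 0.04, 0.00109, lower in 5 of 5 animals), Itgb8 (-0.17 ± 0.04) and Lama4 (-0.09 ± 0.03). At 6 h of differentiation Itga6 fell by 0.21 ± 0.03 and Lamb2 rose by 0.13 ± 0.03, and at 48 h Itga1 fell by 0.28 ± 0.06 and Lamb2 by 0.19 ± 0.04.

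Whether the doxycycline effect differed between ages in stem cell medium was tested directly. By edgeR without the block 0 of 31 members were called (0.0% of all genes, with 2 members at an unadjusted p under 0.05 and 0 called by DESeq2). With the block, Itgb8 (0.25 ± 0.06, adjusted p = 0.0416) and Lama1 (0.36 ± 0.09, 0.0411) were called (3.43% of all genes), both with a higher effect in old cells.

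**Figure D5:**
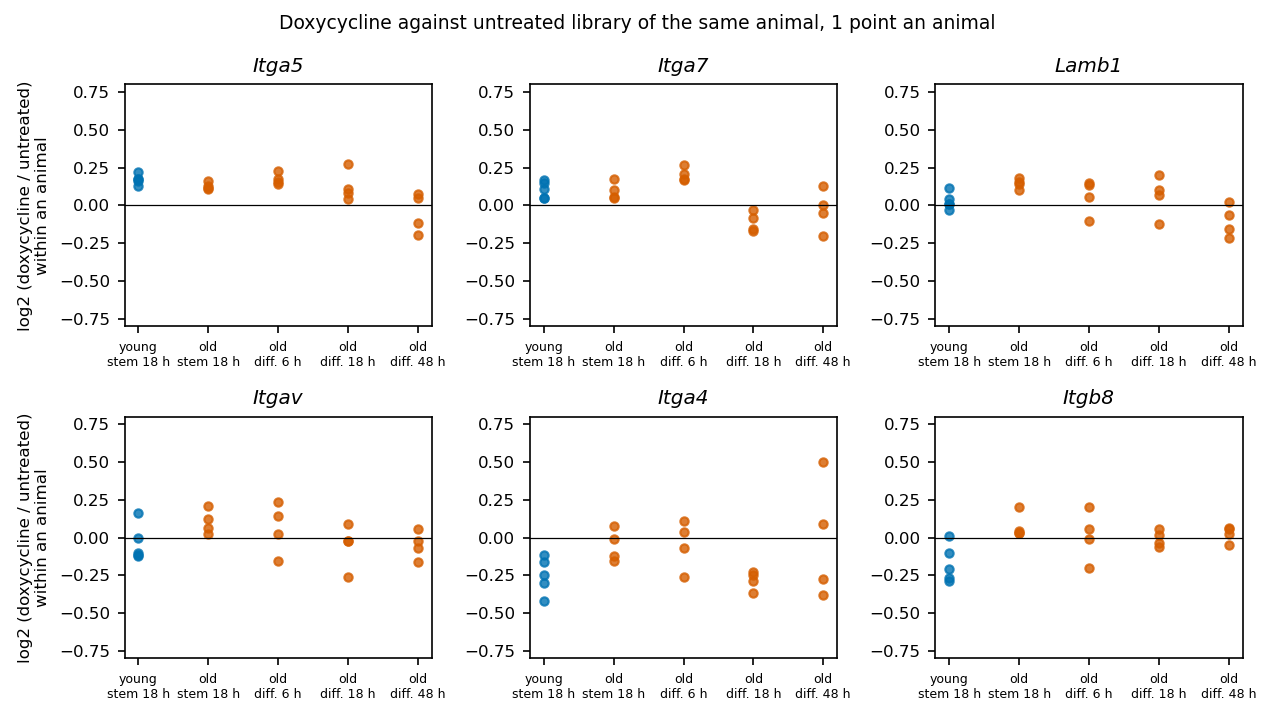
Log2 ratio of the doxycycline-treated over the untreated library of the same animal for 6 members, in young (n = 5) and old (n = 4) cells. Each point is 1 animal; all points of Itga5 lie above 0 in both ages in stem cell medium, and those of Lamb1 lie on both sides of 0 in young cells but above 0 in old cells there.

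Other genes of the matrix and adhesion machinery, in 5 lists, moved with the medium in both directions. At 18 h in young cells 82.6% of all genes were called, so the counts of these lists describe their genes and set no list apart. Of 17 partners of laminin in basement membranes, 16 were tested in young cells at 18 h, 8 fell and 3 rose, with a median log2 fold change of -0.21. Col18a1 (-3.36 ± 0.09), the perlecan gene Hspg2 (-2.42 ± 0.17), the Itga8 ligand Npnt (-2.20 ± 0.12) and nidogen 1, Nid1 (-2.06 ± 0.16), fell, and agrin, Agrn, rose from 392 ± 18 to 845 ± 50.3 CPM (1.15 ± 0.05, adjusted p = 2.30e-11, edgeR). Of 22 other integrin ligands, 19 were tested, 13 fell and 4 rose, with a median of -1.60. Tenascin C, Tnc, went from 1700 ± 165 to 100 ± 15.1 CPM and fibronectin, Fn1, from 110.0 ± 19.9 to 7.04 ± 2 CPM. The Itga4 ligand Vcam1 rose from 15.5 ± 2.94 to 150.0 ± 14.1 CPM (3.32 ± 0.13) and the Itgav ligand Mfge8 from 142 ± 10.4 to 1380 ± 216 CPM (3.31 ± 0.10).

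Of 17 laminin receptors outside the integrin family, 9 were higher and 4 lower, with a median of 0.33. Among them syndecan 3, Sdc3, rose from 612 ± 58.9 to 1400 ± 67.1 CPM (1.23 ± 0.06) and Bcam, a receptor of Lama5, from 5.2 ± 0.986 to 21.2 ± 2.52 CPM, whereas syndecans 1 and 4 (Sdc1, -2.04 ± 0.06, and Sdc4, -1.30 ± 0.06) fell. Of 32 cytoplasmic adaptors, 31 were tested, 12 rose and 16 fell. The adaptors Lims2 (0.359 ± 0.246 to 54.2 ± 12.3 CPM) and Parvb (2.24 ± 0.13) rose and focal adhesion kinase, Ptk2, fell by 1.10 ± 0.04 on the log2 scale. Of 10 membrane proteins that associate with integrins, 6 fell, among them Cd151, which binds laminin-binding integrins (-0.80 ± 0.08), and 2 rose, among them Cd82 (2.88 ± 0.781 to 63.8 ± 10.8 CPM, 4.51 ± 0.19).

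With age in stem cell medium, 4 of 16 basement membrane partners tested were lower in old cells and 0 higher (5.95% of all genes called), with a list median of -0.05: Npnt (-0.66 ± 0.10, adjusted p = 0.00638, edgeR), Nid2 (-0.37 ± 0.09), Col4a2 (-0.31 ± 0.08) and Col4a1 (-0.30 ± 0.07). Npnt, at 56.7 ± 6.11 in young and 36.3 ± 4.6 CPM in old cells, encodes a ligand of Itga8, which was the member higher in old cells. Among other ligands 1 of 19 was lower, and among non-integrin laminin receptors 3 of 17. Of the adaptors 2 of 30 were lower and 1 higher, and of the associated membrane proteins 2 of 10 were lower and 1 higher. No gene of the 5 lists was called for doxycycline in the 5 matched comparisons by edgeR without the block. With it, 5 of 15 basement membrane partners were higher and 1 lower in young cells in stem cell medium, where 13.6% of all genes were called. Of other ligands 6 of 19 were higher and 1 lower there, of non-integrin laminin receptors 2 of 17 and 1, of adaptors 7 of 30 and 0, and of associated membrane proteins 5 of 10 and 0. In old cells, with 11.2% of all genes called, 6 of 16 basement membrane partners were higher and 3 lower, 2 and 1 of 19 other ligands, 1 and 3 of 17 receptors, 3 and 8 of 30 adaptors and 2 and 1 of 10 membrane proteins.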

How the data were processed

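Poly(A) RNA of 65 libraries in 15 groups was sequenced in pairs with a stranded kit, per the labels' protocols. Per the submitters' processing notes the authors worked on mm10, with the tools DESeq2 1.40.1, Subread, SAMtools, STAR 2.7.10b and Trim Galore 0.6.6 (roles not stated). The deposited table holds raw counts per gene, in which a 2 is commoner (75644 cells of the table) than a 1 (19963), so a fragment usually added 2 counts and precision is below that of the totals. A second table by the authors holds log2 variance-stabilised values and served as an alternative. The table's length column gave CPM per kb. GENCODE M21 named 31011 of 31057 features.

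Genes passing filterByExpr (minimum count 10) were tested per comparison, on its own groups alone, with edgeR 4.0.16 (TMM scaling, robust quasi-likelihood test, Benjamini-Hochberg adjustment over all 16621 to 17738 genes, threshold 0.05) in R 4.3.3. There were 23 comparisons, 3 of them interactions. The scripts were tested on simulated data. Alternatives were DESeq2 1.42.0, RLE scaling, no filter, limma 3.58.1 on the log2 table, the replicate block, sex as a covariate between ages, and leaving out each replicate. The labels tie same-numbered libraries of 1 age to 1 animal. Over 10426 genes, deviations from group means of same-animal libraries had median correlations of 0.542 to 0.819 (lowest single pair 0.236), and those of different animals medians of at most -0.263. Deviations cancel within a group by construction, so positive same-animal values push those of different animals to be negative. The negative medians are therefore no separate support for the pairing.

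Per-library values are given for members with a mean of 5 CPM in at least 1 group, and up to 6 called members per direction are named by size of change, others by range or count. Gene lists (5 of pathways, up to 4 called genes per direction named, and 10 of cell type markers) came from general knowledge. Members and lists were chosen with earlier results of these data known. Neuroblast markers (8 genes) summed to 158 to 369 CPM. Some further subunits of these families are not reported here.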

Additional observations from a re-analysis of the deposited data

Results flagged for a closer look

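The effect of the medium differed between 18 and 48 h in treated old cells, by the interaction test of edgeR (difference of log2 fold changes, 48 h less 18 h), for 17 members. It was lower at 48 h for Itga2b (-0.43), Itga5 (-1.02), Itgav (-0.83), Itgb3 (-1.16), Itgb8 (-1.13), Lama1 (-1.42), Lama3 (-0.59), Lama4 (-2.47), Lama5 (-1.11), Lamb1 (-1.87), Lamb2 (-0.95) and Lamb3 (-0.94), and higher for Itga2 (0.78), Itga6 (0.20), Itga8 (0.81), Itga9 (2.18) and Itgb7 (4.52). The Itga2b and Itga6 differences lost their call in some alternatives, Itga2b with limma on the log2 table (adjusted p = 0.0857) and Itga6 with no filter on low counts (0.0561), and leaving out 1 of animals 1, 2 and 3 (Itga2b) or 1 of animals 3 and 4 (Itga6) ended them too.

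In 24 of 300 groups of a member with at least 5 CPM, 1 library lay far from the others (gap over range above Dixon's critical value), where chance gives about 5%. Young animal 5 was the one for Itga7 in both groups of stem cell medium and young animal 3 for Itgb8 at 6 and 18 h of differentiation. Itga1 had such a library at 6.67 CPM in young untreated cells after 18 h of stem cell medium (others 5.21 to 5.57) and 8.74 CPM in old treated cells after 18 h of differentiation medium (others 7 to 7.06). Itga2 had such a library at 6.9 CPM in old treated cells after 18 h of stem cell medium (others 5.22 to 5.31), 5.31 CPM in young treated cells after 18 h of stem cell medium (others 2.65 to 3.31) and 21.6 CPM in old treated cells after 48 h of differentiation medium (others 17.7 to 18.3). Itga2b had such a library at 3.02 CPM in old untreated cells after 18 h of differentiation medium (others 3.39 to 3.42). Itga7 had such a library at 207 CPM in young treated cells after 18 h of stem cell medium (others 130.0 to 135), 187 CPM in young untreated cells after 18 h of stem cell medium (others 120.0 to 126), 19.7 CPM in old untreated cells after 6 h of differentiation medium (others 28.3 to 29.8) and 57.9 CPM in old treated cells after 18 h of differentiation medium (others 45.7 to 47.7). Itgav had such a library at 163 CPM in old treated cells after 18 h of differentiation medium (others 178 to 180.0). Itgb1 had such a library at 767 CPM in old treated cells after 6 h of differentiation medium (others 724 to 726) and 537 CPM in old treated cells after 48 h of differentiation medium (others 496 to 500.0). Itgb5 had such a library at 57.6 CPM in old untreated cells after 18 h of stem cell medium (others 50.3 to 51.5) and 72.4 CPM in old treated cells after 48 h of stem cell medium (others 60.7 to 62.3). Itgb7 had such a library at 0.422 CPM in young untreated cells after 18 h of differentiation medium (others 0.153 to 0.209). Itgb8 had such a library at 401 CPM in young untreated cells after 6 h of differentiation medium (others 539 to 575), 620.0 CPM in young untreated cells after 18 h of differentiation medium (others 710.0 to 733) and 470.0 CPM in old untreated cells after 48 h of differentiation medium (others 427 to 434). Lama1 had such a library at 5.31 CPM in young treated cells after 18 h of stem cell medium (others 5.77 to 5.84) and 2.84 CPM in old treated cells after 18 h of differentiation medium (others 2.34 to 2.42). Lama5 had such a library at 154 CPM in old treated cells after 6 h of stem cell medium (others 117 to 120.0). Lamb1 had such a library at 93.1 CPM in old treated cells after 18 h of stem cell medium (others 82.4 to 82.8). Lamc1 had such a library at 334 CPM in young treated cells after 18 h of stem cell medium (others 280.0 to 294).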

How the results depend on the processing

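Among members with a mean of at least 5 CPM in a group, no called value changed direction under any alternative. Counts of members called for doxycycline, 0 of those tested in each comparison, became 1 with DESeq2 in young cells in stem cell medium, and with the replicate block, where libraries of an animal are paired, 6 in young and 7 in old cells in stem cell medium, 4 at 6 h and 2 at 48 h of differentiation, and 2 for the interaction with age. With DESeq2 the count between ages was 9 at 6 h, 5 at 18 h and 5 at 48 h of differentiation (2, 3 and 3 by edgeR), and 1 for the interaction of medium with age (0 by edgeR). At 6 h limma on the log2 table and sex as a covariate gave 1 each. Between ages, leaving out 1 library gave counts of 4 to 8 in stem cell medium (9 with all), 1 to 4 at 6 h, 1 to 3 at 18 h and 1 to 8 at 48 h. For the interaction of medium with age, leaving out 1 animal with all its libraries gave 0 to 1. The causes were not tested. Ages share no animal, so no paired fit applies between them. The block ended 2 other calls, those of Itga2b between media in old cells (-0.29, adjusted p = 0.0577, edgeR) and of Lamb3 from 18 to 48 h of differentiation in old cells (-0.72, 0.0696). Depth limits the 16 members below 5 CPM most.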
